A study of Mus musculus with 12 samples.

Results

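The 10 genes followed here are imprinted, lie on mouse chromosome 6 and belong to the Peg10 domain (Peg10, Sgce, Casd1, Ppp1r9a, Asb4 and Calcr), the Mest domain (Mest and Copg2) and the Nap1l5 domain (Nap1l5 and Herc3). All array probes that the platform annotation assigns to one of these 10 genes were taken, which gave 19 of the 45281 probes on the array. Probes were kept when 4 or more of the 12 arrays gave them a detection p-value under 0.05. This left 11 of the 19, for 6 of the 10 genes, among 18626 kept probes for 10802 named genes in all.

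All animals were wild-type c57BL6/J females from 4 litters. They were 8 weeks old when the groups were drawn at random, and older when the glands were taken. The Pregnant group held 8 dams mated with c57BL6/J studs and killed at e15.5, and 4 virgin females made up the Non-pregnant group. Total RNA of each whole pituitary was hybridised to one Illumina MouseWG-6 v2.0 BeadChip array, so that each array is 1 animal. Which litter an animal came from is not stated in these sources, and the whole gland mixes the hormone cells of the anterior lobe with the posterior lobe, vessels and blood.

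Imprinted genes are transcribed mainly from the allele of one parent, and neighbouring imprinted genes share a control region whose DNA methylation differs between the egg and the sperm. In such a domain one gene, here Peg10, Mest or Nap1l5, has its own promoter inside the methylated region and is transcribed from the paternal allele. Some of the other genes, but not all, are transcribed from the maternal allele in some tissues only. The maternally methylated regions are kept through early development by ZFP57, a zinc finger protein that binds the methylated hexamer TGCCGC. Neither methylation nor allele was measured on these arrays.

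To show the sequence at which 3 genes on which the results turn begin, their RefSeq promoter windows (GRCm38.p6, 250 bases before to 50 bases after the start, 5′ to 3′ on the strand of the gene) are given, with each TGCCGC on either strand in capitals. The Mest window is chr6:30737800-30738099 on the plus strand, 1 of 3 for this gene, the Nap1l5 window is chr6:58907077-58907376 on the minus strand, and the Asb4 window is chr6:5383136-5383435 on the plus strand, at the upstream one of its 2 start sites.
Mest: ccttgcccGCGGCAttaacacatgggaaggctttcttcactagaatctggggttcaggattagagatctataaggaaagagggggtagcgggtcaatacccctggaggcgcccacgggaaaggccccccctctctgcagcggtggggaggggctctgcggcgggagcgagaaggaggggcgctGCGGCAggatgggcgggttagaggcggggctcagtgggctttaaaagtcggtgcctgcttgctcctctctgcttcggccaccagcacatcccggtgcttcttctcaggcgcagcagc
Nap1l5: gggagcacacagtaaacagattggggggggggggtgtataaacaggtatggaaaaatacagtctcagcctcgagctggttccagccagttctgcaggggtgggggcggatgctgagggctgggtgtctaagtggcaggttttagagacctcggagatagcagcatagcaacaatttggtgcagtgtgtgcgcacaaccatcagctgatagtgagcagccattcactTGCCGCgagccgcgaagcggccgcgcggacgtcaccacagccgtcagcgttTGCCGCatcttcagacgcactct
Asb4: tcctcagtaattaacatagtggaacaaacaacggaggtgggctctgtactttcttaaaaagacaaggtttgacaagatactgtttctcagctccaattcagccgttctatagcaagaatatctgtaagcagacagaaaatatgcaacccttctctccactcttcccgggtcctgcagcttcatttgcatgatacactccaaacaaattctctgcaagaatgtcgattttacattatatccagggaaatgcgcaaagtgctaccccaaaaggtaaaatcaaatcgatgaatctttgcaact
The Mest and Nap1l5 windows shown each held 17 CpG dinucleotides and 2 TGCCGC hexamers, while the Asb4 window shown held 6 CpG dinucleotides and 0 hexamers. Of the other windows of these genes, that of the upstream Mest start held 8 CpG dinucleotides and 0 hexamers, another Mest window nearly the same as the one shown held 17 and 2, and that of the downstream Asb4 start held 8 and 0. Of all 32851 promoter windows 11.6% held the hexamer, and the median window had 7 CpG dinucleotides. A hexamer is a match of letters and not a site of binding. RefSeq windows were matched for 8 of the 10 genes, and 6 of their 14 windows held the hexamer. Windows for Peg10 and Sgce were not used here. In the RefSeq annotation the whole of Nap1l5 lies inside the span of Herc3, on the other strand, and the spans of Mest and Copg2 overlap by 913 bases with the genes on opposite strands.

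Before the comparison, the arrays were checked for samples that stand apart. Non-pregnant replicate 4 lay at 0.253 on the first principal component, which held 24.5% of the variance, against -7.29 to 20.6 for the 8 Pregnant arrays and -32.8 to -21.3 for the other 3 Non-pregnant arrays, and the array closest to it was a Pregnant one. The change of each kept probe of the 10 genes is therefore also given without it. The raw median signal was 151.1 to 179.6 intensity units on Pregnant arrays and 144.8 to 147.6 on Non-pregnant arrays, and 17217 to 18392 and 17789 to 18572 probes were detected. The pituitary hormone genes Gh, Prl, Tshb, Pomc, Lhb and Fshb were all measured. All 5 markers of red blood cells were called higher in Pregnant glands, with a summed linear intensity of 87360 to 131700 against 33260 to 42330, and of the 5 gonadotroph markers Lhb was called lower (-0.91 ± 0.11, adjusted p = 0.000513), while Fshb had an estimate of the other sign (1.61 ± 0.48, adjusted p = 0.0945). Of the other 11 marker lists, none of the 27 measured genes was called, where 1.22% of all kept probes were called higher and 1.10% lower. No melanotroph marker was measured. The summed linear intensity of the 3 somatotroph markers did not overlap, at 34760 to 42980 in Pregnant against 43590 to 49740 in Non-pregnant glands. This sum was mostly Gh, with mean log2 intensities of 15.19 in Pregnant and 15.46 in Non-pregnant glands, against 11.36 and 11.02 for Ghrhr. Groups did not overlap for 2.95% of all kept probes. Of the 3 markers, Gh changed by -0.28 ± 0.09, and Ghrhr and Ghsr by 0.34 ± 0.13 and 0.49 ± 0.23 (adjusted p = 0.107, 0.189 and 0.285). The stem cell markers Sox2 and Sox9 changed by -0.37 ± 0.14 and -0.41 ± 0.11 (adjusted p = 0.186 and 0.0703). The part of these cells in the results below was not tested, and fewer cells of a type cannot be told apart from less RNA per cell.

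Peg10, Sgce, Casd1 and Calcr, all of the Peg10 domain, had no kept probe, and none of their 7 probes was detected on any of the 12 arrays. Peg10, a retrotransposon-derived gag and pol gene required for the placenta, had 2 probes, whose raw intensity was 0.691 to 0.967 and 0.681 to 0.844 of the detection limit of the same array (the lowest raw signal with a detection p-value under 0.05). Its smallest detection p-value on an array was 0.0641. Sgce, which encodes the epsilon subunit of the sarcoglycan complex and shares its promoter region with Peg10, lay at 0.676 to 0.8 of the limit. Casd1, a sialic acid O-acetyltransferase of the Golgi, lay at 0.652 to 0.752. The 3 probes for Calcr, the calcitonin receptor, lay at 0.643 to 0.822 of the limit. For these 4 genes the arrays gave only an upper bound in both groups, so that no fold is given, and signal under the limit does not show that a gene is silent. The other probe detected on 0 arrays was the second probe for Copg2, at 0.621 to 0.757 of the limit, whose transcript accession was not found in the RefSeq table.

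**Figure D1:**
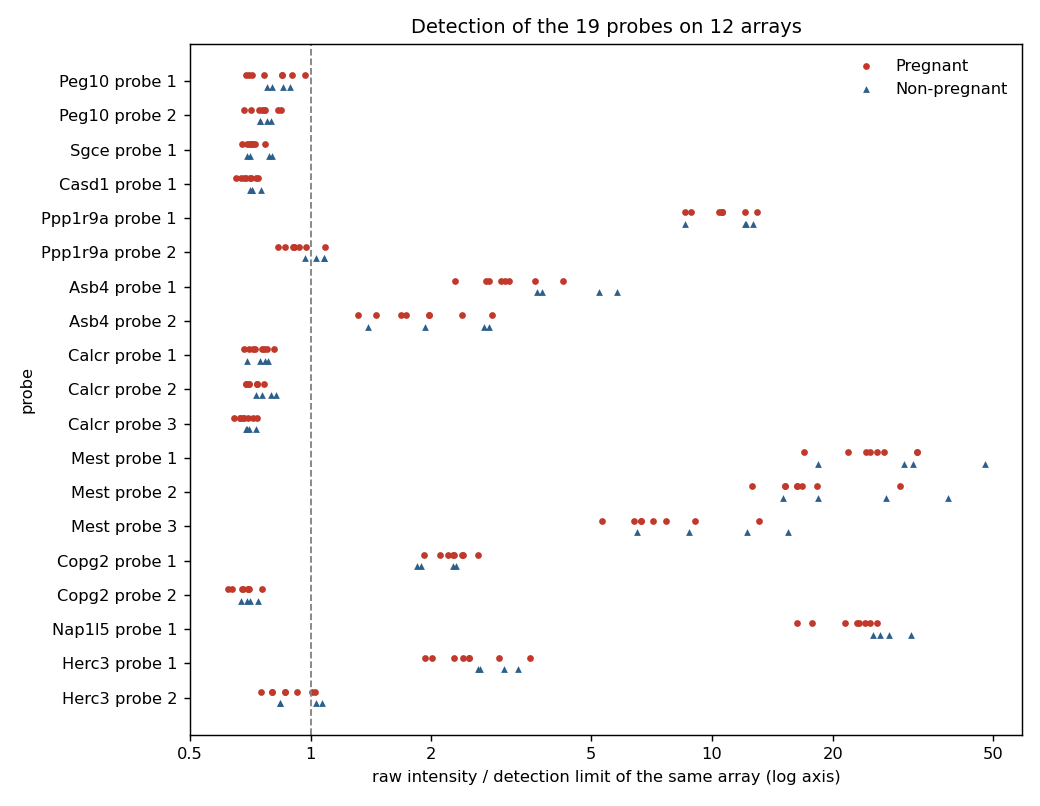
Raw intensity of each of the 19 probes as a ratio to the detection limit of the same array (log axis), with 8 Pregnant arrays as circles above and 4 Non-pregnant arrays as triangles below. All points for Peg10, Sgce, Casd1, Calcr and Copg2 probe 2 lie left of the dashed line at 1, while Mest and Nap1l5 probes lie at 5.32 or more.

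The question of the comparison was whether transcripts of the 3 domains changed in the gland of the dam late in gestation. Of the 11 kept probes, limma called 0 higher and 0 lower in Pregnant glands (adjusted p under 0.05 with a log2 change of 0.322 or more in size), where 1.22% of all 18626 kept probes were called higher and 1.10% lower. At an unadjusted p under 0.05 there were 3 lower (Asb4 probe 1, Nap1l5 and Ppp1r9a probe 2) and 1 higher (Copg2 probe 1), where 8.68% of all kept probes were lower and 8.28% higher. Of these, Ppp1r9a probe 2 was detected on only 1 of 8 Pregnant arrays and passed the filter through 3 of 4 Non-pregnant arrays, so its Pregnant level is mostly a bound. The values of both groups overlapped for all 11 probes, while 2.95% of all kept probes had groups that did not overlap. The estimate was below 0 for 10 of the 11 probes and above 0 for Copg2, and its median was -0.27 on the log2 scale, against 0.0002 over all kept probes, of which 49.95% had an estimate below 0. Probes of one gene, and genes on the same arrays, are not independent, so this count has no test.

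**Figure D2:**
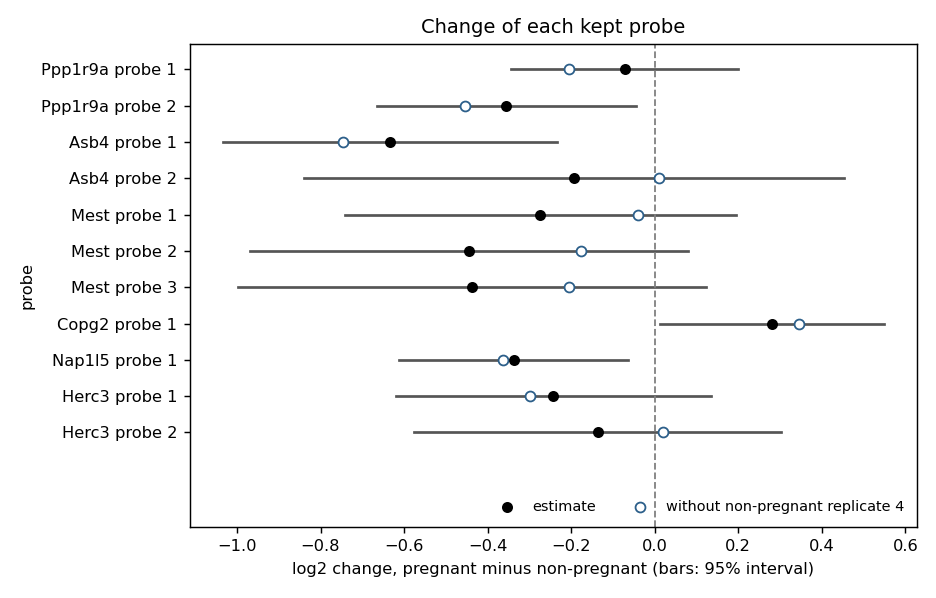
Log2 change, Pregnant minus Non-pregnant, of the 11 kept probes (filled points, limma) with 95% intervals (bars), and the estimate without Non-pregnant replicate 4 (open points). The intervals of 7 probes include 0, and leaving out that array brings the 3 Mest estimates nearer to 0 and takes Asb4 probe 1 further from it.

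Asb4 had the largest estimate. It encodes an ankyrin repeat protein with a SOCS box, the substrate-binding part of a cullin ubiquitin ligase, and is transcribed from the maternal allele. On Asb4 probe 1 the normalised log2 intensity of the 8 Pregnant glands had a lowest value of 8.28, a median of 8.79 and a highest of 9.26, against 9.90, 9.06, 9.56 and 9.06 in Non-pregnant replicates 1 to 4. Of the 8 Pregnant glands, 7 lay below all 4 Non-pregnant glands, and Pregnant replicate 8 lay inside the Non-pregnant range. The highest of the 7, Pregnant replicate 6, was at 9.06, level with Non-pregnant replicates 2 and 4 after rounding. The means were 8.76 ± 0.31 (SD, n = 8) and 9.39 ± 0.41 (SD, n = 4), a log2 change of -0.63 ± 0.19 (SE, 95% interval -1.03 to -0.23, limma adjusted p = 0.0892). Without Non-pregnant replicate 4 the estimate was -0.75 ± 0.20 and passed the threshold (adjusted p = 0.0453), and without Non-pregnant replicate 1 it was -0.46 ± 0.19 (adjusted p = 0.289). Non-pregnant replicate 4 was singled out because it lay among the Pregnant arrays. Without it 536 and 597 of all kept probes were called higher and lower, against 227 and 204 with it.

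Asb4 probe 2, designed on the same transcript, gave another picture in the Non-pregnant glands. Its values in Pregnant glands were 6.91 at the lowest, 7.74 at the median and 8.50 at the highest, against 7.00, 7.73, 8.37 and 8.51 in Non-pregnant replicates 1 to 4. The groups covered almost the same range, with a log2 change of -0.19 ± 0.30 (SE, 95% interval -0.84 to 0.45, adjusted p = 0.801), and of 0.01 ± 0.33 without Non-pregnant replicate 4. Non-pregnant replicate 1 had the highest value of all 12 arrays on probe 1 and the lowest but 1 on probe 2. Without that array the 2 probes gave -0.46 ± 0.19 and -0.49 ± 0.29 (adjusted p = 0.289 and 0.494). Over the 8 Pregnant glands the probes followed each other with r = 0.917, whereas over deviations from the group mean on all 12 arrays r was 0.274 (rho = 0.252, permutation p = 0.425 and 0.476, adjusted p over 21 relations 0.789 and 0.909), and 0.579 without the 2 arrays farthest from the median. The change of probe 2 minus that of probe 1 was 0.44 ± 0.30 (95% interval -0.20 to 1.08, adjusted p = 0.756) and -0.03 ± 0.20 without Non-pregnant replicate 1.

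Such differences between probes were fitted over all genes with several kept probes, and 4 of 5211 pairs (0.0768%) were called. Of the 5 pairs of the genes described here 0 were called. The pair of Ppp1r9a had the smallest unadjusted p of the 5.

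Ppp1r9a encodes neurabin, a scaffold that ties protein phosphatase 1 to actin, and is imprinted in some tissues only. On probe 1 the Pregnant glands had 10.55 at the lowest, 10.82 at the median and 11.03 at the highest, against 11.13, 10.98, 10.93 and 10.48 in the Non-pregnant glands. Non-pregnant replicate 4 was the lowest of all 12 arrays and Non-pregnant replicate 1 the highest. The log2 change was -0.07 ± 0.13 (95% interval -0.34 to 0.20, adjusted p = 0.826), -0.21 ± 0.12 without Non-pregnant replicate 4 and 0.01 ± 0.14 without Non-pregnant replicate 1.

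Probe 2 of Ppp1r9a lay near the detection limit, and was detected on 1 of 8 Pregnant and 3 of 4 Non-pregnant arrays. That limit was higher on Pregnant arrays, at 177.3 to 207.8 intensity units against 163.1 to 167.7. The raw intensity of the probe was 146.7 to 201.9 in Pregnant and 159.4 to 180.8 in Non-pregnant glands. Its normalised values were 5.21, 5.48 and 6.05 (lowest, median and highest) in Pregnant glands, against 6.12, 6.07, 5.81 and 5.61 in Non-pregnant glands, and 5 of 8 Pregnant glands lay below all Non-pregnant glands. The log2 change was -0.36 ± 0.15 (95% interval -0.66 to -0.05, adjusted p = 0.224), -0.45 ± 0.15 without Non-pregnant replicate 4 (adjusted p = 0.0931) and -0.13 when no background was subtracted. The probes followed each other over the 12 arrays with r = 0.85 and rho = 0.888 (permutation p = 0.00019 and 0.00025, adjusted p = 0.00399 and 0.00224), and with r = 0.779 without the 2 arrays farthest from the median. Probe 2 minus probe 1 changed by -0.28 ± 0.11 (adjusted p = 0.505), and by -0.07 ± 0.09 when no background was subtracted or when the processed table was used.

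**Figure D3:**
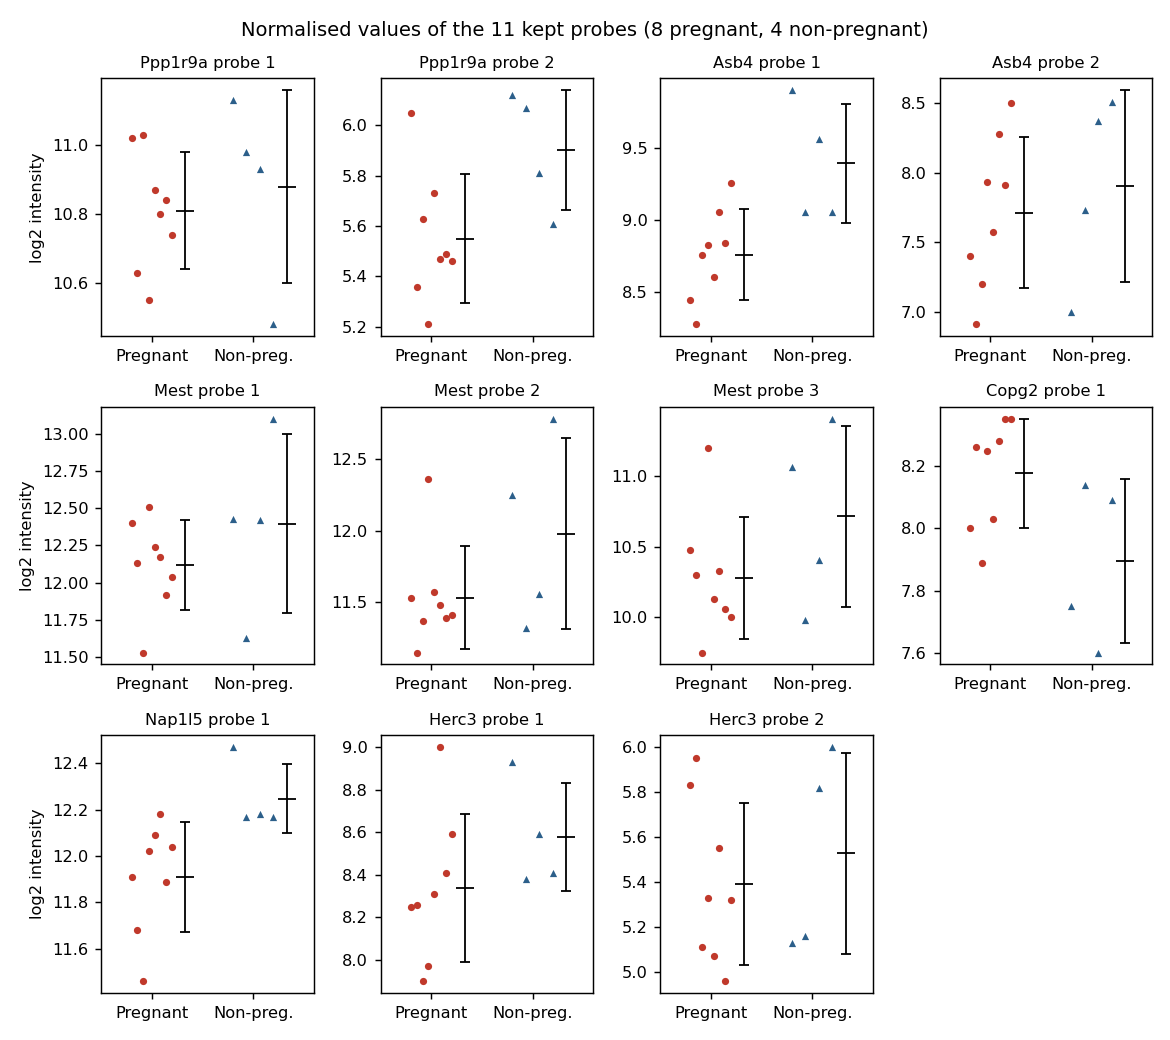
Normalised log2 intensity of the 11 kept probes in 8 Pregnant glands (circles, left) and 4 Non-pregnant glands (triangles, right), each in replicate order, with the mean and SD as a bar; each panel has its own axis. On Asb4 probe 1 and Nap1l5, 7 of 8 Pregnant glands lie below all Non-pregnant glands, and on Copg2 probe 1, 5 of 8 lie above them. On Asb4 probe 1, Pregnant replicate 6 and Non-pregnant replicates 2 and 4 all round to 9.06.

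Mest encodes an alpha/beta hydrolase-fold protein of the endoplasmic reticulum and is transcribed from the paternal allele. All 3 of its probes were detected on all 12 arrays, at 5.32 to 47.7 times the detection limit. On probe 1 the Pregnant glands had 11.53 at the lowest, 12.15 at the median and 12.51 at the highest, against 12.43, 11.63, 12.42 and 13.10 in the Non-pregnant glands. Non-pregnant replicate 4 was the highest of the 12 arrays, and Non-pregnant replicate 2 was lower than all but 1 of them. The means were 12.12 ± 0.30 (SD, n = 8) and 12.39 ± 0.60 (SD, n = 4), a log2 change of -0.27 ± 0.22 (95% interval -0.74 to 0.19, adjusted p = 0.570). The interval corresponds to 0.598 to 1.14 of the Non-pregnant level.

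Mest probes 2 and 3 ordered the glands much as probe 1 did. Probe 2 had 11.15, 11.45 and 12.36 (lowest, median and highest) in Pregnant glands, against 12.25, 11.32, 11.56 and 12.78 in Non-pregnant glands. Probe 3 had 9.75, 10.21 and 11.20 in Pregnant glands, against 11.07, 9.98, 10.41 and 11.41 in Non-pregnant glands. Pregnant replicate 4 was the highest Pregnant gland on all 3 probes, and Non-pregnant replicate 4 the highest of all. The log2 changes were -0.44 ± 0.25 (95% interval -0.97 to 0.08, adjusted p = 0.382) on probe 2 and -0.44 ± 0.26 (95% interval -0.997 to 0.124, adjusted p = 0.426) on probe 3.

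The Mest estimates rested on single Non-pregnant glands. Without Non-pregnant replicate 4 they were -0.04 ± 0.20, -0.18 ± 0.23 and -0.20 ± 0.26 on probes 1, 2 and 3, and without Non-pregnant replicate 2 they were -0.53, -0.66 and -0.68 (adjusted p = 0.204, 0.210 and 0.221). Between the 3 probes, deviations from the group means correlated over the 12 arrays with r = 0.776 (probes 1 and 2), 0.872 (probes 1 and 3) and 0.909 (probes 2 and 3). The rho values were 0.832, 0.867 and 0.874, with permutation p = 0.0153, 0.00114 and 0.00261 for r and 0.00032, 0.00019 and 0.0049 for rho. The adjusted p of r was 0.0801, 0.0120 and 0.0183, and r without the 2 farthest arrays was 0.528, 0.784 and 0.750. Against probe 1 the change of probe 2 was -0.17 ± 0.17 and that of probe 3 was -0.16 ± 0.15 (adjusted p = 0.866 and 0.851). These differences were -0.32 and -0.28 without Non-pregnant replicate 3, and -0.09 and -0.06 without Non-pregnant replicate 1.

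**Figure D4:**
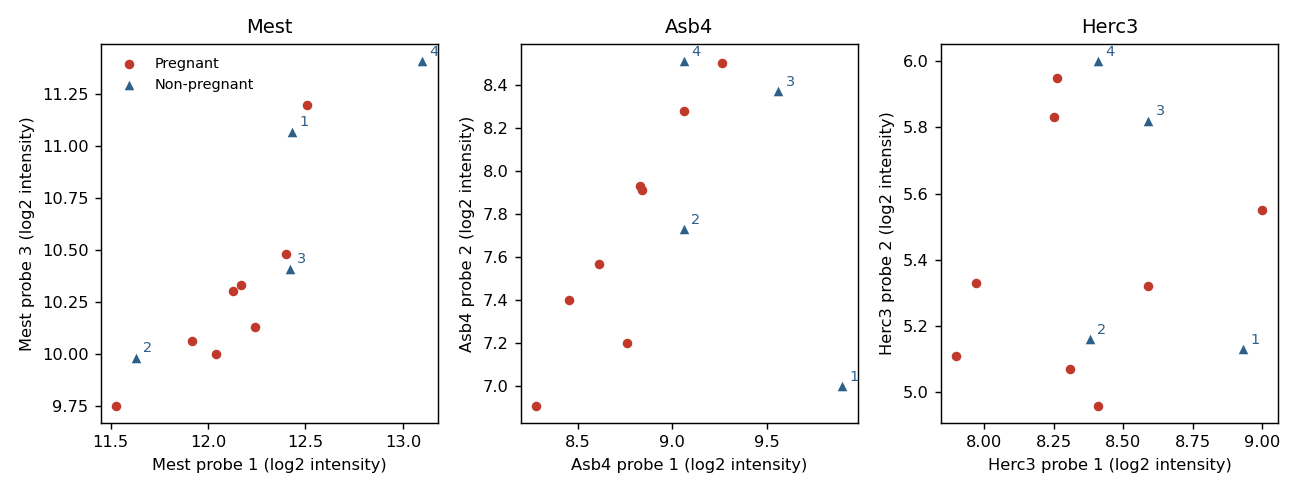
Normalised log2 intensity of one probe against another of the same gene, for Mest, Asb4 and Herc3, with 8 Pregnant glands as circles and 4 Non-pregnant glands as triangles numbered by replicate. The Mest probes rank the glands alike (r = 0.872 over deviations from the group means), Non-pregnant replicate 1 leaves the line of the other glands for Asb4, and the Herc3 probes do not follow each other (r = -0.006).

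Copg2, which overlaps Mest tail to tail, encodes the gamma-2 subunit of the COPI coat of Golgi vesicles. Its kept probe had 7.89 at the lowest, 8.25 at the median and 8.35 at the highest in Pregnant glands, against 7.75, 8.14, 7.60 and 8.09 in Non-pregnant glands. Of the 8 Pregnant glands, 5 lay above all Non-pregnant glands, and the other 3 lay inside the Non-pregnant range. The means were 8.18 ± 0.18 (SD, n = 8) and 7.90 ± 0.26 (SD, n = 4), a log2 change of 0.28 ± 0.13 (95% interval 0.01 to 0.55, adjusted p = 0.271). The estimate was 0.18 ± 0.13 without Non-pregnant replicate 3, which moved it by over 1.5 times, and without Non-pregnant replicate 4 it was 0.35 ± 0.14 (adjusted p = 0.146). With array weights it passed the threshold (0.43 ± 0.12, adjusted p = 0.0411).

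Nap1l5 is an intronless gene of the nucleosome assembly protein family, transcribed from the paternal allele within an intron of Herc3. Its probe had 11.46 at the lowest, 11.97 at the median and 12.18 at the highest in Pregnant glands, against 12.47, 12.17, 12.18 and 12.17 in Non-pregnant glands. Of the 8 Pregnant glands, 7 lay below all Non-pregnant glands, which apart from replicate 1 were nearly equal. The means were 11.91 ± 0.23 (SD, n = 8) and 12.25 ± 0.15 (SD, n = 4), a log2 change of -0.34 ± 0.13 (95% interval -0.61 to -0.06, adjusted p = 0.190). Over the 12 fits that each left out an array the estimate lay between -0.38 and -0.26 (adjusted p from 0.150 to 0.437), with -0.36 ± 0.14 without Non-pregnant replicate 4.

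Herc3, the host gene of Nap1l5, encodes a HECT-type ubiquitin ligase. On probe 1 it had 7.90, 8.29 and 9.00 (lowest, median and highest) in Pregnant glands, against 8.93, 8.38, 8.59 and 8.41 in Non-pregnant glands. Pregnant replicate 6 was the highest of all glands and 5 of 8 Pregnant glands lay below all Non-pregnant glands. The log2 change was -0.24 ± 0.18 (95% interval -0.62 to 0.13, adjusted p = 0.520), -0.13 ± 0.19 without Non-pregnant replicate 1 and -0.30 ± 0.20 without Non-pregnant replicate 4.

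Herc3 probe 2 was detected on 2 of 8 Pregnant and 2 of 4 Non-pregnant arrays. Its values were 4.96, 5.33 and 5.95 in Pregnant glands, against 5.13, 5.16, 5.82 and 6.00 in Non-pregnant glands, which spanned nearly the same range. The log2 change was -0.14 ± 0.21 (95% interval -0.58 to 0.30, adjusted p = 0.790), and 0.02 ± 0.21 without Non-pregnant replicate 4. Its deviations did not follow those of probe 1 (r = -0.006, rho = -0.182, n = 12 arrays, permutation p = 0.985 and 0.587, adjusted p = 0.985 and 0.932; r = 0.0707 without the 2 farthest arrays).

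Between genes, deviations from the group means of the first probes were set against each other over the 12 arrays in 15 pairs. The closest pair was Nap1l5 and its host Herc3, with r = 0.701 and rho = 0.699 (permutation p = 0.0223 and 0.0179; adjusted over 21 relations 0.0937 and 0.0625). Without the 2 arrays farthest from the median r was 0.421, and within the 8 Pregnant glands it was 0.656. Mest and Copg2 had r = 0.0328 and rho = -0.140 (permutation p = 0.949 and 0.733, adjusted p = 0.985 and 0.991; r = 0.178 without the 2 farthest arrays). No pair of different genes passed an adjusted p of 0.05.

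The genes whose deviations were most like those of Mest probe 1 were Selenot (r = 0.934), Srrd (r = 0.924) and Bzw2 (r = 0.911). For Nap1l5 they were Psmb8 (r = 0.897), Clic4 (r = 0.888) and Cers6 (r = 0.881). These are the highest of all named kept genes over the 12 arrays, which share one normalisation, and are a description only. None of these 6 genes was called between the groups.

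Related genes were compared by lists, most of them of families, complexes and pathways to which the encoded proteins belong. The lists also held other genes of these domains (3 measured) and of the imprinted gene network (10 measured). Of 74 listed genes 52 were measured, of which 2 were called higher and 0 lower in Pregnant glands, with a median log2 change of -0.01. Over all kept probes 1.22% were called higher and 1.10% lower. These shares count single probes, while a listed gene counted as called when any of its kept probes was called. Both called genes belong to sialic acid synthesis, the pathway that supplies the substrate modified by the Casd1 enzyme. Gne, whose enzyme begins the pathway, averaged 10.97 ± 0.10 (SD, n = 8) in Pregnant glands against 10.58 ± 0.16 (SD, n = 4) in the Non-pregnant ones, and rose by 0.39 ± 0.10 (adjusted p = 0.0448). Nans, the sialic acid synthase, averaged 10.88 ± 0.10 (SD, n = 8) and 10.49 ± 0.07 (SD, n = 4) and rose by 0.39 ± 0.09 (adjusted p = 0.0274). Gne and Nans each had 2 kept probes, and these values are those of the probe of higher mean only. The other 2 measured genes of the list did not pass the threshold: Cmas, which activates sialic acid, changed by 0.36 ± 0.13, and Slc35a1, which carries it into the Golgi, by 0.32 ± 0.15 (adjusted p = 0.153 and 0.304). The call of Gne ended in 10 of the 12 fits that left out 1 array, all but those without Pregnant replicate 1 or Non-pregnant replicate 4 (adjusted p up to 0.153), and that of Nans in 4, without Pregnant replicate 7 or 8 or Non-pregnant replicate 1 or 3 (up to 0.110).

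In the other lists 0 of 48 measured genes were called. Nap1l3, of the same family as Nap1l5, had a log2 change of -0.59 ± 0.18 (adjusted p = 0.106), and the median over the 4 measured genes of the family was -0.08. Nap1l1, another histone chaperone gene of the family, changed by 0.21 ± 0.11 (adjusted p = 0.355). Among 8 COPI coat genes, Cope and Copz2 had changes of 0.16 ± 0.08 and 0.25 ± 0.13 (adjusted p = 0.335 and 0.359). Of the sarcoglycan and dystroglycan genes, 5 of 8 were measured, and Sgcd and Sspn had changes of 0.31 ± 0.13 and -0.35 ± 0.17 (adjusted p = 0.251 and 0.300). Elob and Cul5, partners of Asb4 in its ubiquitin ligase, changed by 0.08 ± 0.09 and 0.06 ± 0.09 (adjusted p = 0.672 and 0.785). Ppp1r9b and Ppp1cb changed by 0.20 ± 0.10 and 0.36 ± 0.21 (adjusted p = 0.328 and 0.422), and Herc2 and Herc1 by 0.19 ± 0.11 and -0.28 ± 0.23 (adjusted p = 0.391 and 0.586). Of 4 measured genes of calcitonin receptor signalling, Adm and Ramp3 had changes of 0.32 ± 0.18 and 0.19 ± 0.15 (adjusted p = 0.390 and 0.566). Of 4 measured gag-derived genes related to Peg10, Rtl8c and Rtl8a changed by -0.19 ± 0.12 and -0.08 ± 0.09 (adjusted p = 0.452 and 0.681). Of 10 measured genes of the imprinted gene network, Grb10 and Cdkn1c had changes of 0.60 ± 0.16 and -0.35 ± 0.16 (adjusted p = 0.0626 and 0.270). The study, with another normalisation of these arrays, did call Grb10 higher in pregnant glands. It also found Grb10 higher by RT-qPCR in a separate cohort.

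The protein-coding genes within 500 kb of a member gave 18 measured genes of 32 in the RefSeq table, of which 0 were called higher and 0 lower, with a median log2 change of 0.01. Of all kept probes, 1.22% were called higher and 1.10% lower. The measured genes Pon2, Pon3 and Pdk4 were counted both here and among the listed genes above. Around Mest, the carboxypeptidase genes Cpa5 and Cpa4 had changes of 0.64 ± 0.19 and 0.35 ± 0.15 (adjusted p = 0.0957 and 0.254). Around Peg10, the vesicle transport gene Bet1 changed by 0.47 ± 0.19 and the collagen gene Col1a2 by -0.28 ± 0.15 (adjusted p = 0.208 and 0.376). Around Nap1l5, the 2 measured neighbours Tigd2 and Fam13a changed by -0.05 ± 0.11 and 0.07 ± 0.15 (adjusted p = 0.861 and 0.863). Of the other listed genes of these domains, Pdk4 and Pon2 changed by 0.56 ± 0.44 and -0.06 ± 0.10 (adjusted p = 0.557 and 0.816), and Dlx5 and Klf14 had no kept probe.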

How the data were processed

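Each array measured total RNA of 1 whole pituitary, from 8 Pregnant and 4 Non-pregnant females, as the labels name them. The authors deposited a table of linear signal intensity, without normalisation, for 45281 probes, and beside each intensity the deposited detection p-value of the scanner software against negative control beads. A processed table that the authors deposited, described as quantile normalised and variance stabilised with lumi, holds linear intensity values that rank the probes of each array as the raw values do (Spearman correlation of 1), and log2 of it was an alternative.

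From the raw intensities the background was corrected by normexp with control beads inferred from detection p-values (neqc in limma 3.58.1, R 4.3.3, offset 16), followed by quantile normalisation and log2. Lumi was not installed, so this differs from the methods of the study. Symbols are those of the platform annotation (1 gene for each of 34885 probes), updated by gene ID through RefSeq (34807 found). Members and gene lists were chosen with earlier results of these data known. Probes of a gene were numbered by mean normalised signal, highest first, and a listed gene is given by its kept probe of highest mean. A listed gene counted as called when any of its kept probes was called.

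The groups were compared with lmFit and eBayes, two-sided, with Benjamini-Hochberg adjustment over the 18626 probes with a detection p-value under 0.05 on 4 or more arrays. Called means an adjusted p under 0.05 with a log2 change of 0.322 or more in size, the fold threshold of the study. All adjusted p-values of changes come from this limma fit, and those of probe differences from a fit over 5211 pairs. A change is Pregnant minus Non-pregnant in log2 intensity with its SE. Correlations used 100000 shuffles of the arrays within their group, two-sided. Named were all 10 members, of each list the called genes or up to 2 of smallest p (all 4 measured ones for sialic acid synthesis, and the markers Gh, Ghrhr, Ghsr, Prl, Tshb, Pomc, Fshb, Sox2 and Sox9, chosen after their values were seen), and the 3 genes most like Mest and Nap1l5. The fits were tested on simulated data. The limma p-values set each change against the spread between these animals, moderated over all kept probes, and their precision is limited by the number of arrays. They treat the animals as independent, although which of them were littermates is not stated. The alternatives tried were no background correction, the processed table, no filter, detection p under 0.01 on all 12 arrays, trended robust eBayes, array weights, a replicate block, no fold threshold and leaving out each array. They were run for Gne and Nans after seeing the data. A block for slide or scan was not run, since the sources used here name neither.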

Additional observations from a re-analysis of the deposited data

Results flagged for a closer look

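In the 8 Pregnant glands, replicate 4 stood apart on Mest probe 2, at a log2 intensity of 12.36 against 11.57 in the next highest gland, a gap of 0.66 of the range. In the 4 Non-pregnant glands, replicate 1 stood apart on Nap1l5, at 12.47 against 12.18, a gap of 0.968 of the range. These were 2 of the 22 sets of glands examined with Dixon's test at the 95% level, which by itself marks about 1 in 20.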

How the results depend on the processing

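The counts of 0 probes called higher and 0 called lower among the 11 held under all alternatives but these. With array weights 1 probe was called higher (Copg2 probe 1, adjusted p = 0.0411) and 1 lower (Asb4 probe 1, -0.68, adjusted p = 0.0273), where 742 and 834 of all kept probes were called, against 227 and 204. Over the fits that each left out 1 array, the count called lower ranged from 0 to 1, the 1 being Asb4 probe 1 without Non-pregnant replicate 4, where 536 and 597 of all kept probes were called. The median log2 change of the 11 probes lay between -0.34 and -0.17 under all alternatives, and it was -0.27 as reported. Of 293 values for single probes and probe pairs, 284 kept their direction and side of the threshold, 3 passed it and 6 changed sign; the cause was not tested. Over the fits that each left out 1 array, the changes of Ppp1r9a probe 1, Asb4 probe 2 and Herc3 probe 2 ranged from -0.206 to 0.0117, from -0.493 to 0.0099 and from -0.268 to 0.020, and the probe differences of Asb4 and Herc3 from -0.0297 to 0.756 and from -0.143 to 0.318. Their ends came without Non-pregnant replicate 1 or 4. With the replicate block, Herc3 probe 2 was at 0.0278, Asb4 probe 2 at -0.55 and Herc3 probe 1 at -0.48, none past the threshold, 86 and 41 of all kept probes were called, and the median of the 11 was -0.34. Only numbers 1 to 4 occur in both groups, so under the block the change rests on those glands alone. The Pregnant glands with other numbers do not bear on it, and an effect of blocking cannot be told apart from their loss. Same-numbered glands are not stated to be paired: their deviations correlated with 0.163, 0.0603, 0.0145 and 0.203 for numbers 1 to 4. Under the block Gne and Nans had adjusted p = 0.236 and 0.273. The stricter filter kept 12373 probes and 9 of the 11, without Ppp1r9a probe 2 and Herc3 probe 2, whose signal lay near background.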
